A study of Mus musculus with 5 samples.

Results

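The luminal layer of the mouse uterus was followed for 10 genes of the Notch pathway from day 3 of pregnancy to the morning after attachment of the embryo. The genes were taken by name and were the receptors Notch1, Notch2, Notch3 and Notch4, the ligands Jag1, Jag2, Dll1 and Dll4, and the transcriptional targets Hes1 and Hey1. All 10 were found among the 23420 genes counted. RNA-seq had been performed on laser-microdissected luminal layer of wild-type C57BL/6N females, with day 1 set as the day of the vaginal plug. The 5 libraries came from day 3 morning, day 4 morning, day 4 evening, day 5 morning away from the attached embryo (the library named Mpole) and day 5 morning surrounding the attached embryo (the library named Ampole). They are called here day 3 morning, day 4 morning, day 4 evening, day 5 away and day 5 around. No group carried a transgene, a deletion or a hormone treatment. Pregnancy was checked by flushing the oviduct on day 3 and 1 uterine horn on day 4, whereas on day 5 the implantation sites were made visible by intravenous 1% Chicago blue. Day 5 libraries therefore differ from the earlier ones in the dye as well as in time, and these cannot be told apart. In the paper M and AM stand for the mesometrial and anti-mesometrial poles. If Mpole and Ampole mean the same, day 5 away and day 5 around also differ in pole. Pole and nearness to the embryo then cannot be told apart. The titles of the earlier libraries name no pole.

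Notch receptors are single-pass membrane proteins that are activated by Jagged and Delta-like ligands on a neighbouring cell. Ligand binding exposes the receptor to cleavage by an Adam protease and then by the gamma-secretase complex, and the freed intracellular domain enters the nucleus. There it joins the DNA-binding protein Rbpj and Mastermind-like coactivators and activates target genes, among which the Hes and Hey families of basic helix-loop-helix repressors are the best known. In the uterus the pathway is known for roles in decidualization and in the vessels of the implantation site. Hes1 is also activated by signals other than Notch.

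Each condition was represented by 1 library, so differences between conditions could not be set against a spread between replicates, and no p-value is given. The deposited values were raw counts per gene. They were scaled to counts in 1000000 (CPM) with the TMM factors of edgeR, and to CPM per kilobase of gene length (RPKM) where levels of different genes are compared. A fold is the ratio of the CPM of 2 libraries, a log2 change was computed with 2 counts added to each library, and a gene was counted as higher or lower when this change was beyond 1, which is 2-fold. Brackets hold exact 95% intervals, from the Poisson distribution for a level and after Clopper and Pearson for a ratio or a share. They cover counting error only, and leave out the spread between mice. In bulk tissue, fewer cells of a type and less RNA per cell cannot be told apart.

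The total counts per library ranged from 15334674 to 19529491. In every library all 8 epithelial markers were counted, with summed levels of 4286 to 6596 CPM against 397 to 621 CPM for the 9 stromal markers. The day 5 around library stood apart. The embryo genes Pou5f1, Cdx2 and Nanog had 68, 22 and 10 counts there and 0 in the other 4 libraries, and Des, a filament of muscle and decidual cells, had 6090 counts there against 109 to 369. Member values from this library are given below beside those of day 5 away.

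The members lie on 5 autosomes of the GRCm38 assembly. Notch1 (2:26457902-26503822), Jag1 (2:137081451-137116520) and Dll4 (2:119325784-119335666) are on chromosome 2. Notch2 (3:98013538-98150367) and Hey1 (3:8663359-8667038) are on chromosome 3. Notch3 (17:32120893-32166852), Notch4 (17:34564295-34588543) and Dll1 (17:15367354-15375823) are on chromosome 17. Jag2 (12:112908590-112929495) is on chromosome 12 and Hes1 (16:30065357-30067796) is on chromosome 16. All 10 are protein-coding genes, with 4 exons in Hes1, 5 in Hey1, 11 in Dll1 and Dll4, and 26 to 34 in the others. The exons of Dll4 overlap those of Gm14207, which had 35 to 90 counts, and the sources used here do not say whether strand was used in counting.

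The 250 bases before the RefSeq start (GRCm38.p6) of Jag1, Notch1 and Notch4 are shown because Jag1 was the main ligand transcript, and Notch1 and Notch4 were the receptors with the largest differences downwards and upwards between day 4 evening and day 5. Capitals mark the GC box, GGGCGG, or its reverse complement, a common element of promoters without a TATA box. Jag1 and Notch1 are read from the minus strand of chr2:137116521-137116770 and chr2:26503823-26504072, and Notch4 from the plus strand of chr17:34564045-34564294.
Jag1: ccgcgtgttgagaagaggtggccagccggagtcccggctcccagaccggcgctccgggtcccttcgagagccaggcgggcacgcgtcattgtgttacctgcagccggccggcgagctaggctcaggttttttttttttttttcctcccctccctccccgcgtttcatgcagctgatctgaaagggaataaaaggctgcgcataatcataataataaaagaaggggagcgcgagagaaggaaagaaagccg
Notch1: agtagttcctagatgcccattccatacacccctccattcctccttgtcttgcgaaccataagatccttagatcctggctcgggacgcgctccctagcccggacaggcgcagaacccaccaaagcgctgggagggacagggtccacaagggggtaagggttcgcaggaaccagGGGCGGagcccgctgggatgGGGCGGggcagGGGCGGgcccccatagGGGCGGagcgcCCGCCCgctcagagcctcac
Notch4: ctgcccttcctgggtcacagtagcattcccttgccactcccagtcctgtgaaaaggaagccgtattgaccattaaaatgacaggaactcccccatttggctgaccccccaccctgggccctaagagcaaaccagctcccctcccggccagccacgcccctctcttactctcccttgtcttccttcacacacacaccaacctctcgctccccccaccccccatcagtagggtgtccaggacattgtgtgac
The Notch1 window held 5 GC boxes, whereas the Jag1 and Notch4 windows held 0. Among the 8 members with a sequence, 5 held at least 1 on either strand (Notch1, Notch2, Notch3, Jag2 and Dll4), against 32.7% of 32851 promoters. The Rbpj core TGGGAA, which occurs in 21.6% of those promoters, the Stat element TTCNNNGAA, in 7.02%, and the E-box CACGTG, in 6.02%, were in none of the 9 windows of these 8 members. That says only that these letters are not in these 250 bases. The GC box was searched after the other 3 motifs had given no match.

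Of the ligands, Jag1 was the main transcript in every library, and its level differed between the morning and the evening of day 4. Jag1 encodes Jagged 1. Day 3 morning had 332 counts of it, day 4 morning had 415, day 4 evening had 1216, day 5 away had 1491 and day 5 around had 908. These are 19.1, 23.1, 76.9, 79.9 and 52.7 CPM. The 2 morning libraries before attachment were low and the other 3 were high, with no overlap of their counting intervals. Day 4 evening was 3.33-fold above day 4 morning, a log2 change of 1.73 [1.57, 1.90], and day 5 away differed from day 4 evening by 0.06 [-0.05, 0.17] on the log2 scale. In day 5 around the Jag1 level was 1.52-fold below that of day 5 away (-0.60 [-0.72, -0.48]), which is within 2-fold.

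Dll4, a Delta-like ligand best known from sprouting vessels, was highest in the day 5 pair. Its counts were 58, 93, 81, 216 and 163 in the order of the libraries given above, or 3.34, 5.18, 5.12, 11.6 and 9.46 CPM. Day 5 away was 2.26-fold above day 4 evening (1.16 [0.80, 1.56]) and day 5 around was 1.85-fold above it (0.87 [0.49, 1.29]). Between the 2 day 5 libraries the interval of the log2 change held 0 (-0.29 [-0.59, 0.01]). Endothelial markers summed to 15.0, 29.2, 35.3, 47.6 and 158 CPM, and to 10.5, 19.5, 22.2, 39.2 and 28.9 CPM without Cdh5 and Flt1. The latter sums were, like Dll4, highest in the day 5 pair and higher in day 5 away than in day 5 around. That order was carried by Tek, with 3.03 CPM on day 4 evening, 25.25 CPM in day 5 away and 14.28 CPM in day 5 around. The part of endothelial transcripts in the Dll4 values was not tested.

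Jag2 and Dll1 were rare. Jag2, the other Jagged ligand, had 73, 38, 18, 40 and 52 counts, lowest on day 4 evening and highest on day 3 morning. Its change from day 4 evening to day 5 around was 1.32 [0.61, 2.27], past 2-fold. From day 3 morning to day 4 morning it was -0.95 [-1.60, -0.41], just inside 2-fold. Dll1, a Delta-like ligand, had 0, 13, 0, 0 and 4 counts and was the one member under the minimum mean of 1 CPM. With the floor of 3 counts in place of 0, its 13 counts on day 4 morning were 4.19-fold above day 3 morning and 3.82-fold above day 4 evening. Counting error allows less. The interval of the log2 change starts at 1.56 from day 3 morning to day 4 morning, and ends at -1.42 from day 4 morning to day 4 evening.

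Among the receptors, Notch1 was lower on day 5 than on day 4. It had 618, 1053, 1041, 461 and 427 counts, or 35.6, 58.6, 65.8, 24.7 and 24.8 CPM. Both day 4 libraries were high and both day 5 libraries were low, and the day 3 morning level lay between. Relative to day 4 evening, Notch1 was 2.66-fold lower in day 5 away (-1.41 [-1.57, -1.25]) and 2.65-fold lower in day 5 around (-1.40 [-1.57, -1.24]). The 2 day 5 libraries differed by 0.00 [-0.19, 0.20] on the log2 scale.

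Notch2 had its lowest value where Notch1 had its highest. The Notch2 counts were 402, 359, 219, 521 and 334, or 23.2, 20.0, 13.8, 27.9 and 19.4 CPM. From day 4 evening to day 5 away the log2 change was 1.01 [0.78, 1.25], which is just past 2-fold, and to day 5 around it was 0.48 [0.24, 0.74].

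Notch3 and Notch4, receptors best known from the wall and the lining of vessels, were higher in day 5 around than in day 5 away. Notch3 had 152, 59, 74, 63 and 162 counts, so that day 3 morning and day 5 around were high and the 3 other libraries low. The Notch3 level on day 4 morning was 2.66-fold below day 3 morning (-1.38 [-1.87, -0.97]). It was 2.79-fold higher in day 5 around than in day 5 away (1.45 [1.05, 1.92]). Day 5 around against day 4 evening gave 0.99 [0.60, 1.42], just inside 2-fold. Notch4 had 38, 37, 35, 24 and 190 counts, or 2.19, 2.06, 2.21, 1.29 and 11.0 CPM. The intervals of the first 4 libraries overlap and day 5 around is above them all, 4.99-fold over day 4 evening (2.26 [1.79, 2.88]) and 8.57-fold over day 5 away (2.99 [2.48, 3.78]). Without the day 5 around library, the Notch4 counts ranged from 24 to 38.

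Markers of other cells also stood out in day 5 around, and their part in the Notch3 and Notch4 values was not tested. All 8 endothelial markers were counted in all 5 libraries, and their sum of 158 CPM in day 5 around was carried by Cdh5 (1229 counts) and Flt1 (996 counts). Kdr, Tie1 and Emcn had their lowest counts there, at 18, 8 and 27. Cldn5 had its highest count there, at 75, and Pecam1 its highest level, at 7.20 CPM against 5.84 CPM in day 5 away. The sum without Cdh5 and Flt1 was 28.9 CPM against 39.2 CPM in day 5 away, of which Tek held 14.28 and 25.25 CPM. The 7 markers of pericytes and smooth muscle summed to 404 CPM against 21.1 to 48.5 CPM, of which Des held 354 CPM, and to 50.0 CPM without Des against 14.9 to 29.5 CPM. Pdgfrb, Acta2, Myh11 and Tagln also had their highest counts there, whereas the pericyte marker Rgs5 had its lowest, at 62. Cspg4 was highest on day 4 evening, at 2.84 CPM against 1.92 CPM in day 5 around. Embryo and trophoblast markers other than Sox17, a gene that the uterine epithelium also expresses, summed to 115 CPM against 5.13 to 13.0 CPM. The 6 glandular markers summed to 31.2 CPM in day 5 around against 1.83 to 6.01 CPM. Lif held 17.65 CPM of it (304 counts), and the paper describes Lif as induced on day 5 in stroma around attached embryos. Spink1, Prss28 and Prss29 also had their highest counts there, whereas Foxa2 and Cxcl15 did not. The 7 immune markers summed to 44.5 to 60.9 CPM over all 5 libraries. In day 5 around Cd68 was at its highest, with 38.9 of 47.7 CPM, whereas Ptprc, Adgre1, Csf1r, Itgam and Ncr1 had their lowest counts. The 9 stromal markers summed to 397 CPM in day 5 around and went both ways there. Hand2 was at 132.5 CPM against 4.03 to 20.86 CPM in the other libraries, and Col1a1 and Pdgfra were also at their highest levels. Col1a2, Col3a1, Dcn and Lum were at their lowest, and Hoxa10 and Vim at neither end.

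**Figure D1:**
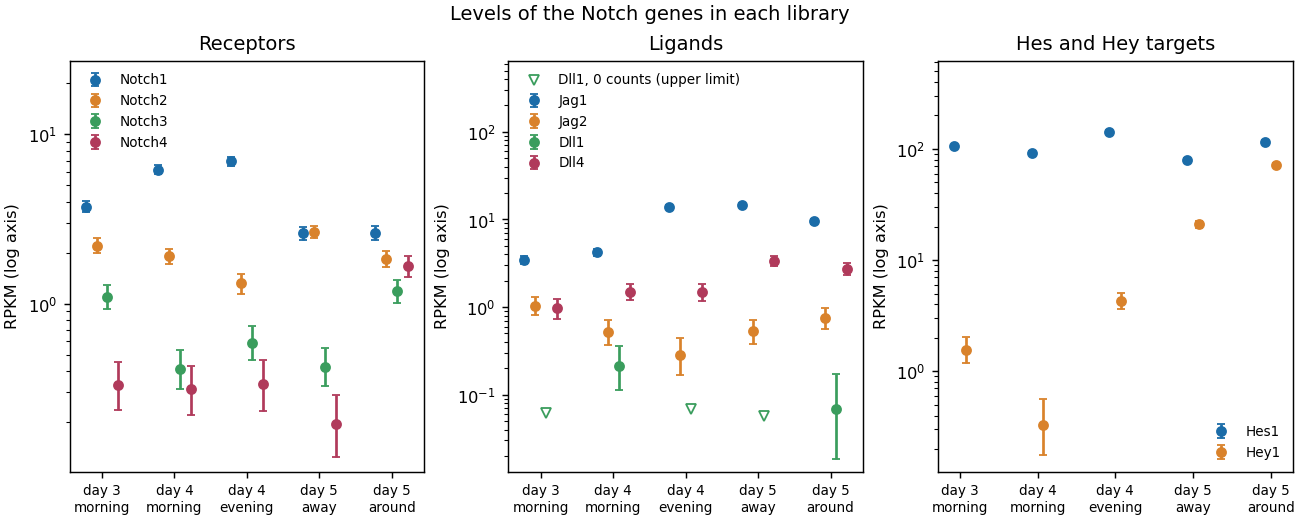
Level of each receptor, ligand and target in each of the 5 libraries, in RPKM on a log axis. Points are single libraries, bars are exact 95% Poisson intervals, and open triangles mark the upper limit where Dll1 had 0 counts. Jag1 steps up between the day 4 libraries, Notch1 is lower in both day 5 libraries, and Hey1 spans 0.328 to 72.1 RPKM.

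Summed over the 4 receptors, the level was 7.39, 8.81, 9.18, 5.88 and 7.31 RPKM in the 5 libraries, whereas the makeup of the sum differed more. Its share held by Notch1 was 50.8% [47.9, 53.6] on day 3, 70.2% [67.8, 72.5] in the morning of day 4, 75.6% [73.2, 77.8] in its evening, 44.3% [41.3, 47.3] in day 5 away and 35.7% [33.0, 38.6] in day 5 around. Notch1 was thus the main receptor transcript in the first 3 libraries and in day 5 around, where Notch2 held 25.2% [22.9, 27.8]. In day 5 away Notch2 held 45.2% [42.2, 48.2], which its interval does not separate from Notch1. Notch4 held 22.8% [20.1, 25.7] in day 5 around and 3.31% to 4.49% in the other 4 libraries. The 4 ligands summed to 5.49, 6.44, 15.8, 18.4 and 13.2 RPKM, with 63.5% to 88.8% in Jag1 and 9.42% to 23.3% in Dll4. Jag2 held 1.78% to 18.9%. Its share on day 3 morning was not separated by its interval from the 17.6% of Dll4. Summed ligand RPKM was below summed receptor RPKM in the 2 morning libraries of days 3 and 4, and above it in the other 3.

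**Figure D2:**
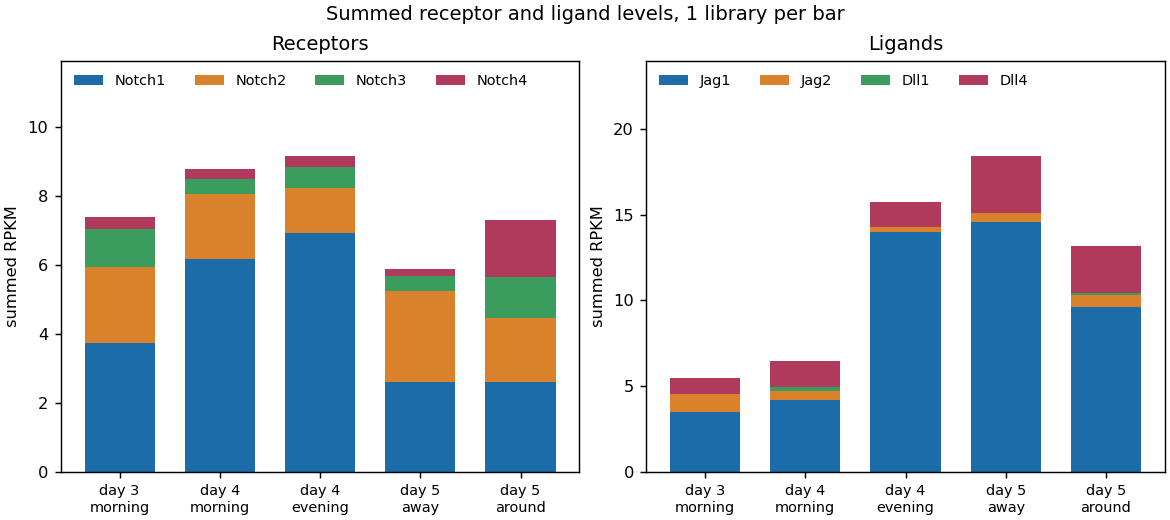
Summed RPKM of the 4 receptors (left) and the 4 ligands (right) in each library, with 1 bar per library and colours for the genes. The Notch1 share is 75.6% on day 4 evening and 44.3% and 35.7% on day 5, and the ligand sum goes from 6.44 RPKM on day 4 morning to 15.8 RPKM on day 4 evening.

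Hes1 and Hey1, both repressors of the basic helix-loop-helix class, behaved unlike each other. Hes1 had 2653, 2411, 3257, 2156 and 2897 counts, or 153, 134, 206, 116 and 168 CPM. Its level passed 2-fold in no comparison, and the highest library, day 4 evening, was 1.78-fold above the lowest, day 5 away. With 79.7 to 142 RPKM, Hes1 was the highest member in every library and stood above 93.1% to 95.8% of the 12915 genes kept.

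Hey1 had 60, 13, 151, 864 and 2739 counts, or 3.46, 0.724, 9.54, 46.3 and 159 CPM. Day 4 morning was the lowest library and day 5 around the highest, and the intervals of the 5 libraries did not overlap. The level on day 4 morning was 4.77-fold below day 3 morning (-2.09 [-3.24, -1.37]). It was 13.2-fold higher on day 4 evening than on day 4 morning (3.53 [2.90, 4.66]), and 4.85-fold higher in day 5 away than on day 4 evening (2.27 [2.03, 2.54]). Day 5 around was a further 3.43-fold above day 5 away (1.78 [1.67, 1.89]). From 13 to 2739 counts the ratio of CPM was 219.7. On the RPKM scale Hey1 stood above 6.33% of the genes kept on day 4 morning and above 90.9% of them in day 5 around. The span between its lowest and highest library, 7.57 on the log2 scale, was larger than that of 98.7% of the genes kept, compared with 27.0% for Hes1, 68.2% for Jag1 and 82.1% for Notch4. The part of embryo, endothelial and muscle transcripts in the day 5 around value of Hey1 was not tested. Hey1 was higher in day 5 away, too, than in the 3 earlier libraries. In day 5 away 4 of the 9 embryo and trophoblast markers were at 0 (Pou5f1, Cdx2, Nanog and Sox2), while Tfap2c had 79 counts against 3 to 15 in the earlier libraries and Gata3 had 23 against 5 to 8. Tek was at 25.25 CPM in day 5 away against 1.32 to 3.03 CPM earlier, and no other endothelial marker was above its earlier levels. Of the pericyte and muscle markers, Acta2 and Des were above their earlier levels and the others were not. The part of such transcripts in the day 5 away value was not tested either.

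Within a library, neighbours in the order of RPKM were often not separated by their intervals. Notch1 and Jag1 overlapped on day 3 morning (3.75 and 3.48 RPKM), Notch2 and Notch1 in day 5 away (2.66 and 2.61 RPKM), and Dll4 and Notch1 in day 5 around (2.74 and 2.61 RPKM). Hes1 was followed by Notch1 on the 2 mornings of days 3 and 4, by Jag1 on day 4 evening and by Hey1 in both day 5 libraries, each time without overlap.

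Of the 10 members, 9 reached the mean of 1 CPM and were compared with the same counts over the 12915 genes that did. From day 3 morning to day 4 morning 0 of 9 members were higher and 2 were lower (Notch3 and Hey1), where 7.47% of all genes were higher and 11.5% lower. From day 4 morning to day 4 evening 2 were higher (Jag1 and Hey1) and 0 lower, against 7.21% and 6.95% of all genes. In day 5 away relative to day 4 evening 3 were higher (Notch2, Dll4 and Hey1) and 1 was lower (Notch1), against 12.9% and 12.7%. In day 5 around relative to day 4 evening 3 were higher (Notch4, Jag2 and Hey1) and 1 was lower (Notch1), against 19.1% and 20.7%. In day 5 around relative to day 5 away 3 were higher (Notch3, Notch4 and Hey1) and 0 lower, against 13.4% and 15.0%. As 1 of 9 members is 11.1%, these counts are too small to set the members apart from all genes. The median log2 change of the members was -0.19, 0.17, 0.06, 0.87 and 0.47 in these 5 comparisons, and that of all genes kept lay between -0.05 and 0.01. The third and the fourth comparison share the day 4 evening library, and the fifth shares a library with each of them.

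**Figure D3:**
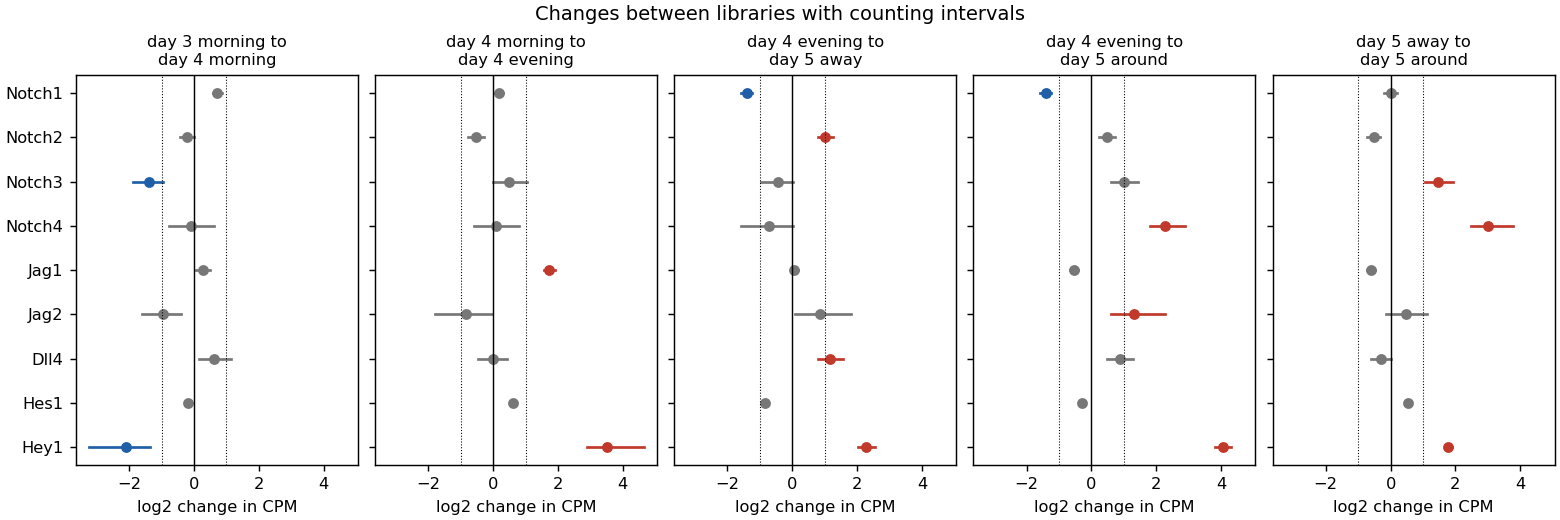
Log2 change in CPM of the 9 members that reached a mean of 1 CPM, with 1 panel per comparison. Points are the changes between 2 single libraries, lines the 95% counting intervals, dotted lines mark 2-fold, and red and blue points are past it upwards and downwards. Hey1 is past 2-fold in all 5 panels and Hes1 in none.

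Genes whose profile over the 5 libraries was closest to that of a member were sought among the 8841 genes whose mean was 10 CPM or more. This was done for members whose mean was 5 CPM or more and whose libraries spanned at least 4-fold, namely Jag1 and Hey1. The measure was the root mean square difference of centred log2 CPM over the 5 libraries, where 0 is an identical shape. For Jag1 the closest were Apbb1 (0.11), an adaptor of the amyloid precursor protein, Swt1 (0.15) and Mtr (0.18), the methionine synthase. Apbb1 had 159, 210, 502, 697 and 383 counts, with the same low pair of mornings as Jag1. For Hey1 the closest were farther off, namely Nupr1 (0.44), a stress-inducible nuclear protein, Nckap5 (0.47) and Cda (0.49), the cytidine deaminase. Nupr1 had 990, 143, 3103, 14936 and 26628 counts and so had its lowest library on day 4 morning and its highest in day 5 around, as Hey1 did. With 5 points that share 1 library per condition, such likeness is a description.

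The wider pathway was described with a list of 52 other genes, of which 43 reached the mean of 1 CPM. Higher and lower counts were 5 and 2 from day 3 morning to day 4 morning, 2 and 4 from day 4 morning to evening, 6 and 8 from day 4 evening to day 5 away, 5 and 8 to day 5 around, and 10 and 9 from day 5 away to day 5 around. In per cent of the 43 genes, these were 11.6 and 4.65, 4.65 and 9.30, 14.0 and 18.6, 11.6 and 18.6, and 23.3 and 20.9, to be read against the shares of all genes given for the members. The median change of the list lay between -0.13 and 0.20, and 17 of the 43 genes were within 2-fold in every comparison. Those of the list named below for staying within 2-fold, and Nrarp, Heyl, Numbl, Maml3 and Tle2, which had a mean under 10 CPM, were chosen after their values were seen.

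The other Hes and Hey genes differed from Hey1 in some comparisons and went with it in others. Hey2, the closest relative of Hey1, had 223, 536, 274, 2 and 25 counts. It was highest on day 4 morning, where Hey1 was lowest, and nearly gone from both day 5 libraries. From day 4 evening to day 5 away the ratio of CPM was 161.5-fold lower, with an interval of the log2 ratio from -10.39 to -5.47, and to day 5 around it was 11.9-fold lower (-3.48 [-4.23, -2.98]). Between the day 5 libraries Hey2 was higher around the embryo, as Hey1 was, with a ratio of CPM of 13.5 and an interval of the log2 ratio from 1.76 to 6.88. Hes6, a family member known to oppose Hes1, had 1105, 1248, 587, 738 and 434 counts and stayed within 2-fold in all 5 comparisons. Its highest and lowest levels, 69.5 CPM on day 4 morning and 25.2 CPM in day 5 around, were more than 2-fold apart. That pair is not among the 5 comparisons. Hes2, Hes3, Hes5 and Hes7 had 0 to 8 counts. Nrarp, a feedback inhibitor that Notch itself induces, had 40, 77, 119, 17 and 89 counts, so that it was 8.25-fold lower in day 5 away than on day 4 evening (-2.90 [-3.87, -2.31]) and 5.67-fold higher in day 5 around than in day 5 away (2.36 [1.74, 3.35]). Heyl, the third Hey gene, had 29, 19, 42, 45 and 10 counts. It was 2.51-fold higher on day 4 evening than that morning (1.24 [0.51, 2.19]), in the direction of Hey1, and 4.16-fold lower in day 5 around than in day 5 away (-1.86 [-3.21, -1.05]), against it.

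**Figure D4:**
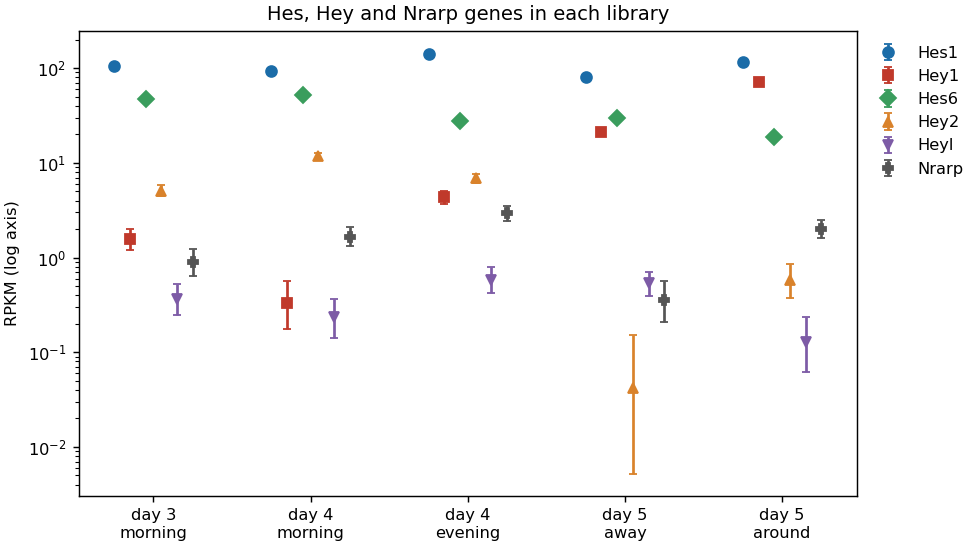
RPKM on a log axis of Hes1, Hey1, Hes6, Hey2, Heyl and Nrarp in each library. Points are single libraries with exact 95% Poisson intervals. Hes1 stays between 79.7 and 142 RPKM, Hey1 goes from 0.328 RPKM on day 4 morning to 72.1 RPKM in day 5 around, and Hey2 goes from 11.8 to 0.573 RPKM between the same libraries.

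Among the genes that cleave the receptors, Adam10 and Furin were highest in day 5 around. Adam10, the protease of the first ligand-induced cut, had 3686, 2400, 2303, 2036 and 4723 counts and was 2.51-fold higher in day 5 around than in day 5 away (1.33 [1.25, 1.40]). Furin, which processes the receptor in the secretory pathway, had 874, 703, 657, 1065 and 1980 counts and was 1.38-fold higher in day 5 away (0.46 [0.32, 0.60]) and 2.77-fold higher in day 5 around (1.47 [1.34, 1.60]) than on day 4 evening. The gamma-secretase genes Psen2, Ncstn, Aph1a, Aph1b and Psenen and the protease Adam17 were within 2-fold in every comparison.

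Genes that modify the receptors and ligands varied as well. Rfng, a fringe enzyme that extends sugars on Notch, had 636, 1571, 1346, 314 and 883 counts, which put day 5 away 5.05-fold below day 4 evening (-2.33 [-2.52, -2.16]). Poglut1, which adds glucose to Notch, was 2.22-fold higher in the same comparison (1.15 [0.98, 1.32]). Mib2, a ubiquitin ligase of the ligands, was 2.25-fold lower in day 5 around than in day 5 away (-1.15 [-1.49, -0.85]).

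Among the genes of receptor turnover, Numb, Dtx4 and Dtx3l were lower in day 5 around than on day 4 evening, whereas Numbl, the relative of Numb, was higher. Numb, an inhibitor that sorts Notch away from the membrane, had 555, 1127, 1304, 536 and 675 counts, with its 2 highest libraries on day 4, as for Notch1. Its change from day 4 evening was -1.52 [-1.67, -1.37] to day 5 away and -1.07 [-1.21, -0.94] to day 5 around. Numbl had 73, 152, 47, 137 and 353 counts and was 2.47-fold higher in day 5 away (1.27 [0.82, 1.82]) and 6.90-fold higher in day 5 around (2.74 [2.34, 3.26]) than on day 4 evening. Dtx4, a Deltex ubiquitin ligase, had 1301, 1730, 806, 276 and 22 counts and was 3.44-fold lower in day 5 away (-1.78 [-1.99, -1.58]) and 39.9-fold lower in day 5 around (-5.20 [-6.00, -4.71]) than on day 4 evening. Dtx3l, a further Deltex relative, had 913, 875, 997, 649 and 217 counts and was 1.81-fold lower in day 5 away (-0.85) and 5.00-fold lower in day 5 around (-2.31 [-2.54, -2.11]). Dtx3 differed from them, with 2.04-fold more in day 5 away than on day 4 evening (1.02 [0.78, 1.28]) and 2.62-fold less in day 5 around than in day 5 away (-1.38 [-1.66, -1.12]).

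In the nuclear complex, Rbpj, the DNA-binding partner of all 4 receptors, had 533, 696, 559, 432 and 519 counts and stayed within 2-fold. The same held for the coactivators Maml1 and Ep300 and for Snw1 and Spen. For Maml2, day 4 morning was 2.08-fold above day 3 morning (1.05 [0.86, 1.25]). The corepressor Tle1 had 457, 726, 1390, 497 and 2521 counts, which made it 3.30-fold lower in day 5 away than on day 4 evening (-1.72 [-1.87, -1.57]) and 5.49-fold higher in day 5 around than in day 5 away (2.45 [2.32, 2.60]). Tle3, a relative of Tle1, was higher in day 5 around than in day 5 away too, by 1.23 [1.15, 1.32] on the log2 scale. Maml3 and Tle2 lay at opposite ends. Maml3 had 19, 13, 4, 369 and 175 counts. Tle2 had 107, 128 and 136 counts before day 5 and 0 in both day 5 libraries. With the floor of 3 counts in place of 0, its level was 53.5-fold lower in day 5 away than on day 4 evening. The interval of that log2 change ends at -5.42.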

How the data were processed

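RNA-seq had been carried out on the luminal layer of wild-type uteri in 5 libraries, 1 per condition. According to the paper's methods, RNA from microdissected tissue was amplified with a SMART-seq v.4 kit, and read pairs were aligned by HISAT2 to GRCm38/mm10 and assigned to genes by featureCounts (Subread 2.0.0). The deposited table holds the authors' unnormalized counts for each gene, with its coordinates and length. The gene annotation, the strand setting and the handling of reads with several alignments were not given in the sources used here. The methods say that RNA of 3 samples was pooled for each microdissected group of the Lif-mutant experiment, and do not say whether this also holds for these wild-type libraries. Reads that overlap a neighbouring gene or a near-identical copy can thus be counted in a way that cannot be checked.

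The tools were Python 3.11.15 with pandas 2.3.3, numpy 2.4.6 and scipy 1.17.1, and values were plotted with matplotlib 3.10.9. TMM factors (edgeR 4.0.16, R 4.3.3), from 0.900 to 1.13, scaled the library totals. The features Rn45s and Lars2 held 15.0% to 23.2% of the counts of a library. Log2 CPM carried a prior count of 2. Genes whose mean reached 1 CPM were kept, and a gene was called when it was past 2-fold, since 1 library per condition allows no test. The floor of 3 counts equals 0.161 to 0.190 CPM. The fold changes were checked on simulated data. Alternatives were a prior count of 0.5, library totals, size factors of DESeq2 1.42.0, no filter, a mean of at least 5 CPM, folds of 1.5 and 3, and shares from counts not divided by gene length. A scaling by totals that leave out Rn45s and Lars2 was chosen after seeing the data.

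The members and all gene lists were chosen with earlier results of these data known. All 10 members were named. Pathway genes were named when past 2-fold in a comparison and with a mean of 10 CPM or more (some of them are not reported here), together with the 3 genes closest in profile to members with a mean of at least 5 CPM and a span of at least 4-fold. Intervals are exact at 95% and cover counting error only. For shares of summed RPKM the length mix of the other genes was held as counted. Promoter sequences are from RefSeq on GRCm38.p6. They matched 8 members, and Hes1 and Hey1 had no entry. The names of 27 genes in the table had the form of dates.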

Additional observations from a re-analysis of the deposited data

How the results depend on the processing

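With 1 library per condition no sample could be left out. No paired analysis was possible because each condition had 1 library and the result comes from no test. In the 5 comparisons the counts of members past 2-fold stayed within 1.5 times the reported ones under DESeq2 size factors, library totals with or without Rn45s and Lars2, and a prior count of 0.5. DESeq2 size factors and the prior count of 0.5 put Notch3 past 2-fold in day 5 around against day 4 evening, and library totals put Jag2 past it downwards on day 4 morning against day 3 morning and upwards in day 5 away against day 4 evening. Under library totals the median log2 change of all genes reached -0.36 (day 5 around against day 5 away), where it was -0.05 with TMM factors. The changes of the members shifted by up to 0.31. No called change reversed its sign under any alternative. Without the filter, which adds Dll1, 1 member was higher on day 4 morning than on day 3 and 1 was lower on day 4 evening than that morning. With a mean of at least 5 CPM, 1 member was higher in day 5 around against day 4 evening. At 1.5-fold the members gave 2 higher on day 4 morning, 1 lower on day 4 evening, 3 lower in day 5 away, 5 higher in day 5 around against day 4 evening and 1 lower against day 5 away. At 3-fold they gave 1 lower on day 4 morning, 1 higher and 0 lower in day 5 away, and 0 lower in day 5 around against day 4 evening. For the pathway list, the counts of higher genes from day 3 to day 4 morning were 1 with library totals, 3 at 5 CPM, 12 at 1.5-fold and 0 at 3-fold, and of lower genes 4 without the filter, 0 at 5 CPM, 4 at 1.5-fold and 1 at 3-fold. From day 4 morning to evening they were 4 higher without the filter, 1 at 5 CPM, 4 at 1.5-fold and 0 at 3-fold, and 2 lower at 5 CPM, 10 at 1.5-fold and 2 at 3-fold. From day 4 evening to day 5 away they were 10 higher at 1.5-fold and 2 at 3-fold. To day 5 around they were 10 higher without the filter, 12 at 1.5-fold and 3 at 3-fold, and 4 lower at 5 CPM. From day 5 away to day 5 around they were 6 higher with library totals, 6 without Rn45s and Lars2 in the totals and 4 at 3-fold, and 4 lower at 5 CPM and 3 at 3-fold. A change of the fold or the filter changes the number of genes counted by construction. Library totals leave out the TMM factors, so they move the changes of all genes by about the ratio of those factors, also by construction. Why the TMM factors differ between the libraries was not tested. Shares from counts not divided by gene length differed from the RPKM shares by up to 8.92 percentage points. Dll1, Jag2, Notch3 and Notch4 had at most 190 counts in any library, and counting error limits their changes.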
